A study of Homo sapiens with 6 samples.

Results

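The genes described here encode the digestive enzymes and membrane proteins of the lysosome, in A375 human melanoma cells. The members are 40 named genes, found by mapping the NCBI Gene identifiers of the count files to symbols, out of 28395 identifiers in all. They fall into 12 proteases, 10 glycosidases, 3 sulfatases, 4 lipases and other lipid hydrolases, 3 lipid activator and transfer proteins, and 8 membrane proteins. All 40 passed the filter on low counts and were tested.

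A375 is an established line from a BRAF-mutant melanoma. RNA was sequenced from cells kept for 72 h in 1 of 3 conditions, with 2 libraries each. The control cells received the solvent DMSO at 0.01%. The second group received palbociclib, an inhibitor of the cell cycle kinases CDK4 and CDK6, at 1 µM. The third received GSK3326595 at 500 nM, which blocks PRMT5, an enzyme that methylates arginines. All cells are of this 1 line and no other genetic change is named. Each inhibitor was compared with DMSO, and both comparisons use the same 2 DMSO libraries. Palbociclib was also compared with GSK3326595 directly, which is the test of a difference between their effects. Each inhibitor was used at a single dose and a single time.

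Lysosomes are acidic compartments that break down proteins, sugars, lipids and nucleic acids delivered by endocytosis and autophagy. Most soluble hydrolases receive a mannose 6-phosphate tag in the Golgi and are carried by receptors to the lysosome, where many are cut into their active form. Many of their genes carry a short palindromic element near the start site, the CLEAR element, which is bound by the MiT/TFE transcription factors TFEB, TFE3 and MITF. Staining for β-galactosidase activity at raised pH, which comes from the lysosomal enzyme of GLB1, is a common marker of cells that have left the cell cycle for good.

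The 6 libraries held between 16589153 and 20842099 counts on genes. Levels are given as CPM, the counts of a gene per 1000000 counts, on library sizes adjusted with edgeR's TMM method. A gene is called higher or lower when the adjusted p of edgeR's quasi-likelihood test, with Benjamini-Hochberg adjustment over all 16381 genes tested, is under 0.05. Libraries of 1 group differed by 5.38 to 10.2 times the variance that sampling alone gives, so none were duplicates. The labels do not say that replicates came from separate cultures, so the p-values reflect the spread of these libraries alone, and that spread may be technical. The summed level of 6 cell cycle markers was 1922 CPM ± 128 (SD, n = 2) with DMSO, 654 ± 44.1 with palbociclib and 1119 ± 7.74 with GSK3326595, and all 6 were called lower in each of the 3 comparisons. Of the 8 melanocyte lineage markers, SOX10 lay between 122 and 237 CPM in the 6 libraries, while TYR was at 0 in 5 libraries and DCT was under 1 CPM in every library. S100B was the 1 marker of that list called with palbociclib, at 3.68 and 3.12 CPM with DMSO, 10.6 and 10.9 with palbociclib and 3.44 and 3.96 with GSK3326595 (log2 1.66 against DMSO, edgeR adjusted p = 3.15e-05, and 1.54 between the inhibitors, edgeR adjusted p = 0.000105). SOX10 gave log2 0.34 with palbociclib against DMSO (edgeR adjusted p = 0.0611, and 4.96e-05 with a replicate block), and was called higher with palbociclib than with GSK3326595 (log2 0.63, edgeR adjusted p = 0.00315). The part of these markers in the results below was not tested. In bulk RNA a change in the share of cells that express a gene and a change in RNA per cell cannot be told apart.

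Most of the lysosomal genes were higher with palbociclib. Of the 40, 27 rose and 2 fell against DMSO, and 11 were not called. The share of all tested genes called in either direction was 39.5%. The share called higher was 19.3% and the share called lower was 20.2%, against 67.5% and 5% of the members. The median log2 fold change of the members was 0.53, beside -0.02 over all genes tested, and the members ranged from -0.75 for GUSB to 1.57 for CTSK. Both palbociclib libraries lay above both DMSO libraries for 32 members (35.1% of all tested genes did) and below for 3 (37.4% of all). For 9 members the rise was at least 2-fold. Leaving out any 1 library left 23 to 27 members called higher. Without DMSO replicate 1, DMSO replicate 2, palbociclib replicate 1 or palbociclib replicate 2, the count called lower was 1.

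With GSK3326595 most of the 40 genes were not called. Against DMSO 5 rose, 3 fell and 32 were not called. Over all genes tested 18.8% were called in either direction, 8.58% were called higher and 10.2% lower, against 12.5% and 7.5% of the members. The members' median log2 fold change was 0.04, beside -0.00 over all genes, and their range was -0.42 to 1.02. Both GSK3326595 libraries lay above both DMSO libraries for 11 members (27.6% of all tested genes) and below for 10 (29.7% of all). These counts depended on single libraries. The count called higher was 2 without DMSO replicate 2 and 3 without GSK3326595 replicate 2. The count called lower was 0 without DMSO replicate 1 and 1 without GSK3326595 replicate 2. With the replicate number as a block, 11 were called higher and 6 lower. Over all 16381 genes tested the block called more too, 2826 higher and 2943 lower.

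Between the inhibitors, 23 members were higher with palbociclib than with GSK3326595, 2 were lower and 15 were not called. Over all genes tested 34.8% were called in either direction, 16.6% were called higher and 18.2% lower, against 57.5% and 5% of the members. The median log2 difference of the members was 0.48, beside -0.03 over all genes. The 2 palbociclib libraries lay above both GSK3326595 libraries for 28 members (31.8% of all tested genes) and below for 3 (35.7% of all). The lower count was 1 when any 1 of the 6 libraries was left out.

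**Figure D1:**
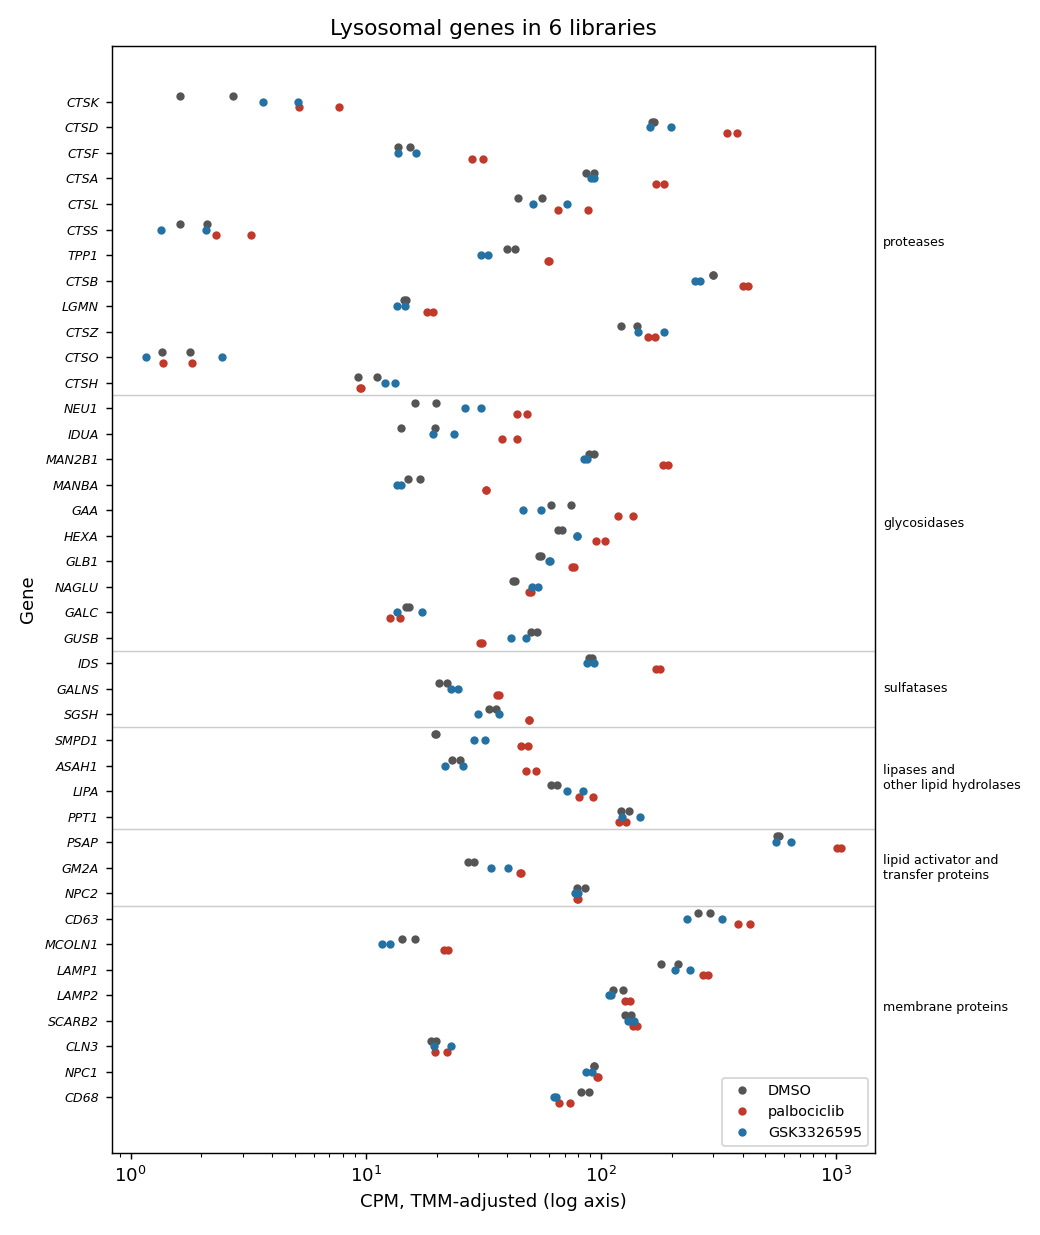
Levels of the 40 members in the 6 libraries on a log axis of CPM, with 1 point for each library coloured by group and genes ordered by class. The palbociclib points lie above both DMSO points for 32 members, and below both for GUSB, CD68 and GALC.

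Summed over the 40 members, the level with DMSO was 3216 and 3292 CPM, with palbociclib 4959.6 and 4857, and with GSK3326595 3177 and 3527. The palbociclib libraries were the highest and the GSK3326595 libraries lay on both sides of the DMSO libraries. The ratio of the group means to DMSO was 1.51 for palbociclib and 1.03 for GSK3326595. The sum of the sulfatases had the largest ratio with palbociclib among the 6 classes, at 1.79, and that of the membrane proteins the smallest, at 1.25. With GSK3326595 the class ratios ran from 0.998 for the membrane proteins to 1.14 for the lipid hydrolases, whose 3 groups were 234 CPM ± 8.83, 307 ± 8.27 and 267 ± 31.4 (SD, n = 2) for DMSO, palbociclib and GSK3326595.

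**Figure D2:**
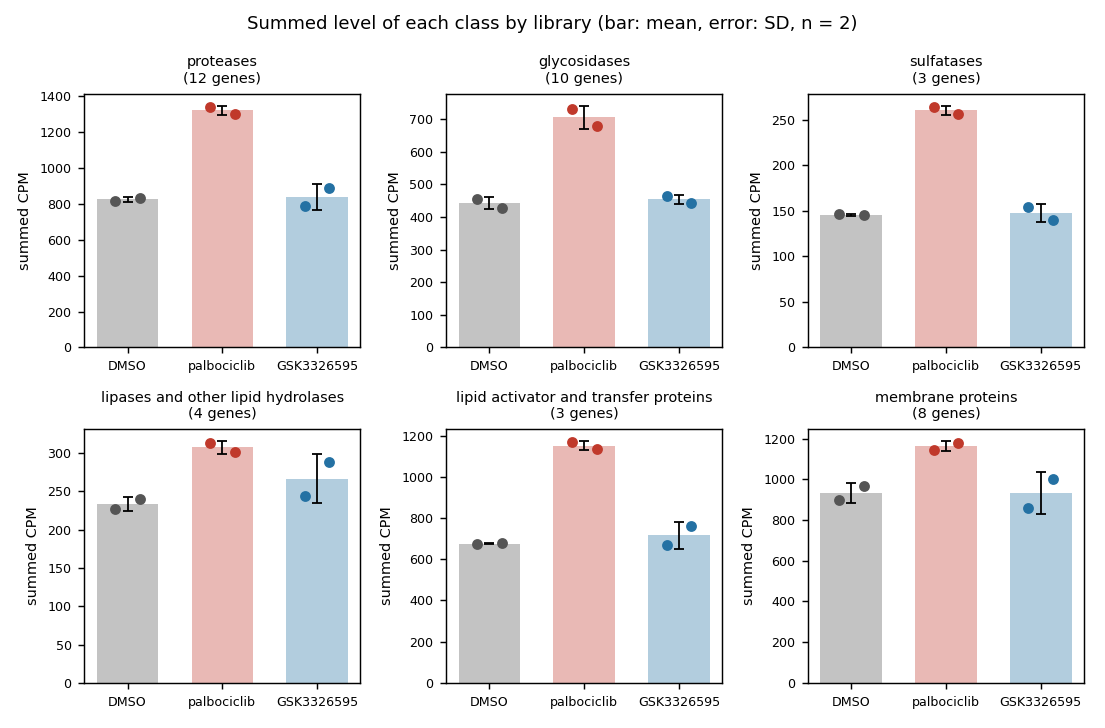
Summed CPM of each of the 6 member classes, with 1 point for each library and the mean of each group. Palbociclib lies above DMSO in all 6 classes, with ratios of 1.25 to 1.79, and GSK3326595 lies between 0.998 and 1.14 times DMSO.

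Short stretches of promoters show where the CLEAR letters lie in some of the members. RefSeq promoters (build GRCh38.p14, 250 bases before to 50 after the first start listed) were matched for 28 of the 40 members. Of the 28, 6 have more than 1 start listed and the others listed were not used. Each window below is 60 bases, 5′ to 3′ on the gene's strand, and was chosen because it holds a motif wholly before the start. The motif is the core CACGTG with GT before it and AC after it (the 10-letter CLEAR form). Where that form is absent, it is the core with T before it and A after it (8 letters). The members shown were all called higher with palbociclib, which was not part of the choice. Capitals mark those letters. Further copies of the core or the 8 letters in the windows of CTSA and MCOLN1 are left in lower case. All of these motifs are palindromes, so a match is on both strands, and each shorter motif lies within the longer.
CTSA, chr20:45891275-45891334, plus strand: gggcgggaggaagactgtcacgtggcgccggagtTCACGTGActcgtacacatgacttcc
GAA, chr17:80101521-80101580, plus strand: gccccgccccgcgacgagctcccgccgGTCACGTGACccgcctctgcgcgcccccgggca
GALNS, chr16:88857089-88857148, minus strand: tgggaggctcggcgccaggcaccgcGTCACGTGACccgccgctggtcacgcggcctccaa
LAMP1, chr13:113297179-113297238, plus strand: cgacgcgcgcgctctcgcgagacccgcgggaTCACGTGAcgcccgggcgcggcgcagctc
MCOLN1, chr19:7522564-7522623, plus strand: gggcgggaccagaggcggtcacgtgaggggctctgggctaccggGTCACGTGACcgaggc

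The first capital lies 33 bases before the start in GAA, 176 in GALNS, 16 in MCOLN1, 26 in CTSA and 29 in LAMP1. The 10 letters were in 3 of the 28 promoters (10.7%), and in 0.674% of the 12466 promoters of tested genes. The inner 8 letters were in 6 of 28 (21.4%), against 1.67%. The sixth was CLN3, whose match crosses the start and which was not called. The core CACGTG was in 10 of 28 (35.7%), against 9.55%. Of the 19 matched members called higher with palbociclib, 3, 5 and 9 held the 10, 8 and 6 letters. Of the other 9 matched members, 0, 1 and 1 did. The letters searched were those of an element already known from many lysosomal genes. The higher shares among the members were therefore foreseeable and are not a separate result. A match describes the letters in the window and does not show that a factor is bound there.

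**Figure D3:**
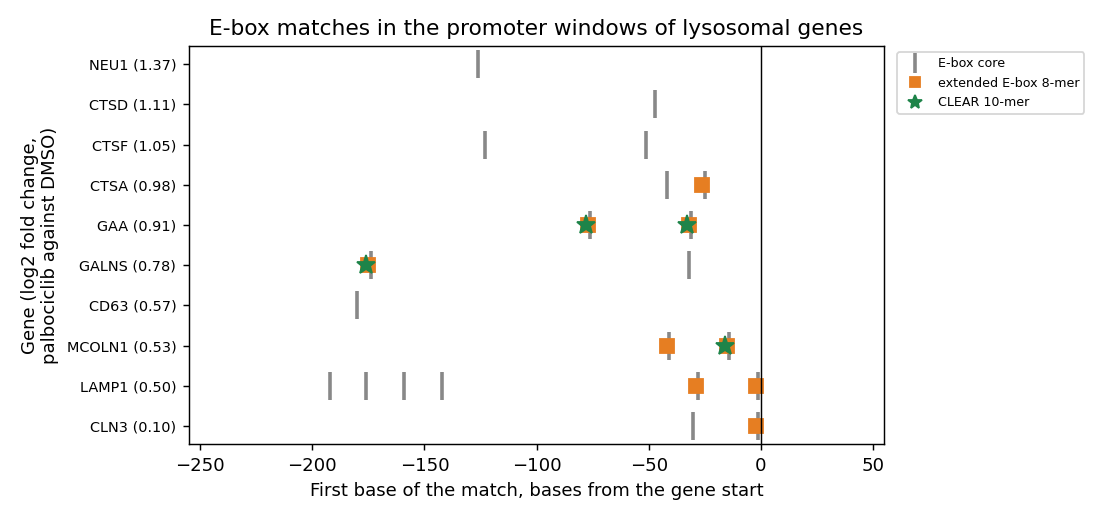
Positions of the motif letters in the matched member promoters, as distance in bases from the first start listed, with members ordered by their log2 fold change in palbociclib against DMSO. Of the 28 promoters, 10 hold the core, 6 the inner 8 letters and 3 the 10 letters.

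Among the 12 proteases, 9 rose with palbociclib. CTSA (Gene ID 5476, chr20:45891335-45898820, hg38) encodes protective protein, a carboxypeptidase that also holds β-galactosidase and neuraminidase in a stable complex. Its level was 93.0 and 86.7 CPM with DMSO, 185 and 171 with palbociclib and 93.0 and 90.6 with GSK3326595. Palbociclib was above all other libraries, and exceeded DMSO by 0.98 ± 0.0832 on the log2 scale (estimate and SE; edgeR adjusted p = 3.14e-06). GSK3326595 differed from DMSO by 0.03 ± 0.084 (edgeR adjusted p = 0.838), and the inhibitors differed by 0.95 ± 0.0833 (edgeR adjusted p = 1.3e-05). CTSD (Gene ID 1509, chr11:1752755-1763927), the main aspartic protease of the lysosome, was at 168 and 165 CPM with DMSO, 378 and 343 with palbociclib and 162 and 199 with GSK3326595. It rose 2.17-fold with palbociclib (log2 1.11 ± 0.105, edgeR adjusted p = 7.73e-06). With GSK3326595 the libraries lay on both sides of DMSO (log2 0.12 ± 0.105, edgeR adjusted p = 0.465), and the direct difference was 0.99 ± 0.105 (edgeR adjusted p = 4.25e-05).

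TPP1, a tripeptidyl peptidase whose loss causes a childhood form of neuronal ceroid lipofuscinosis, moved in opposite directions. It was at 43.2 and 39.98 CPM with DMSO, 59.5 and 60.1 with palbociclib and 32.9 and 30.9 with GSK3326595, so the 3 groups did not overlap. It rose with palbociclib (log2 0.53 ± 0.0944, edgeR adjusted p = 0.000957) and fell with GSK3326595 (log2 -0.38 ± 0.0973, edgeR adjusted p = 0.0185). The fall was not called without DMSO replicate 1 (edgeR adjusted p = 0.098) or without GSK3326595 replicate 2 (edgeR adjusted p = 0.0756). The inhibitors differed by 0.91 ± 0.0962 (edgeR adjusted p = 4.45e-05).

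CTSK, a collagen-cleaving cysteine cathepsin best known from osteoclasts, was at 2.73 and 1.61 CPM with DMSO, 7.67 and 5.19 with palbociclib and 5.13 and 3.67 with GSK3326595. The groups did not overlap, with palbociclib highest and DMSO lowest, though the lower palbociclib library (5.19) and the higher GSK3326595 library (5.13) were close. It rose by log2 1.57 ± 0.301 (edgeR adjusted p = 0.0015) with palbociclib and by 1.02 ± 0.315 (edgeR adjusted p = 0.0415) with GSK3326595. The second rise was 0.68 without DMSO replicate 2 (edgeR adjusted p = 0.222) and 0.76 without GSK3326595 replicate 1 (edgeR adjusted p = 0.122). The inhibitors differed by 0.54 ± 0.278 (edgeR adjusted p = 0.151), or with a replicate block at edgeR adjusted p = 0.0201, and by 0.82 without GSK3326595 replicate 1 (edgeR adjusted p = 0.0482). The summed level of 5 osteoclast markers was 18.4 and 17.5 CPM with DMSO, 34.7 and 30.6 with palbociclib and 22.8 and 26.7 with GSK3326595. Nearly all of that sum was ACP5, itself a lysosomal phosphatase, while ATP6V0D2 was under 2 CPM and OCSTAMP was at 0 in every library. Of the 5, 2 passed the filter, and both were called higher with palbociclib against DMSO (log2 0.81 and 1.74). The share of all tested genes was 19.3%. With GSK3326595 the 2 gave -1.04 and 0.49, and 1 was called higher (8.58% of all tested genes were). Between the inhibitors both were called higher with palbociclib (0.32 and 2.77), as were 16.6% of all tested genes. In each comparison at least 1 of these calls was not kept in every setting. The part of these markers in the CTSK result was not tested.

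The other proteases were mixed. CTSB, a cysteine cathepsin, rose with palbociclib from 299 and 300.3 CPM to 422 and 403 (log2 0.46, edgeR adjusted p = 0.00116) and lay at 250.5 and 263 with GSK3326595 (log2 -0.22, edgeR adjusted p = 0.0939, and 0.00904 with a replicate block). CTSF rose by log2 1.05 (edgeR adjusted p = 5.1e-05) and was near the DMSO level with GSK3326595. CTSL, CTSZ and the asparaginyl endopeptidase LGMN rose by 0.61, 0.32 and 0.36 with palbociclib, and single libraries decided each call. CTSL was at edgeR adjusted p = 0.0125, but 0.0913 without DMSO replicate 1 and 0.148 without palbociclib replicate 2. CTSZ was at edgeR adjusted p = 0.0482, but leaving out DMSO replicate 1 gave 0.291, palbociclib replicate 1 0.0867 and palbociclib replicate 2 0.231. LGMN was at edgeR adjusted p = 0.0324, but between 0.0853 and 0.194 when any 1 DMSO or palbociclib library was left out. CTSH, CTSO and CTSS were not called against DMSO with either inhibitor, and CTSO and CTSS stayed under 4 CPM in all libraries. With a replicate block CTSL rose with GSK3326595 (log2 0.28, edgeR adjusted p = 0.00268), as it did without GSK3326595 replicate 1 (0.50, edgeR adjusted p = 0.0244). CTSZ did so too, by 0.32 with the block (edgeR adjusted p = 0.000234) and 0.49 without GSK3326595 replicate 1 (edgeR adjusted p = 0.00567).

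Of the 10 glycosidases, which remove sugars from glycoproteins, glycolipids and glycosaminoglycans, 7 rose and 1 fell with palbociclib. MAN2B1, the lysosomal α-mannosidase, had the smallest p of all members in this comparison. It was at 93.4 and 88.9 CPM with DMSO, 192 and 183 with palbociclib and 85.0 and 87.3 with GSK3326595. The palbociclib libraries were about 2-fold above the others (2.06-fold against DMSO, log2 1.04 ± 0.08, edgeR adjusted p = 1.52e-06). GSK3326595 differed from DMSO by -0.08 ± 0.0809 (edgeR adjusted p = 0.53), and the direct difference was 1.12 ± 0.0804 (edgeR adjusted p = 4.53e-06). NEU1 (Gene ID 4758, chr6:31857659-31862821), the lysosomal sialidase, rose in both inhibitor groups. Its level was 16.1 and 19.8 CPM with DMSO, 48.7 and 44.1 with palbociclib and 26.5 and 30.9 with GSK3326595, and no groups overlapped. The rise was log2 1.37 ± 0.127 (edgeR adjusted p = 6.64e-06) with palbociclib and 0.68 ± 0.129 (edgeR adjusted p = 0.00408) with GSK3326595, and the inhibitors differed by 0.69 ± 0.123 (edgeR adjusted p = 0.00116).

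GAA (Gene ID 2548, chr17:80101581-80119881), the acid α-glucosidase that is missing in Pompe disease, showed the largest direct difference among the members. It was at 74.5 and 61.5 CPM with DMSO, 137 and 118 with palbociclib and 55.8 and 46.4 with GSK3326595. The groups did not overlap, with palbociclib above DMSO and GSK3326595 below it. It rose by log2 0.91 ± 0.118 (edgeR adjusted p = 8.84e-05) with palbociclib and fell by 0.41 ± 0.121 (edgeR adjusted p = 0.0337) with GSK3326595. The fall was -0.30 without DMSO replicate 1 (edgeR adjusted p = 0.194) and -0.29 without GSK3326595 replicate 2 (edgeR adjusted p = 0.155). The inhibitors differed by 1.32 ± 0.12 (edgeR adjusted p = 1.75e-05). MANBA, the β-mannosidase, was at 17.0 and 15.04 CPM with DMSO, 32.5 and 32.4 with palbociclib and 14.0 and 13.6 with GSK3326595. It rose by 1.02 ± 0.111 (edgeR adjusted p = 2.37e-05) against DMSO, and the direct difference was 1.23 ± 0.113 (edgeR adjusted p = 1.82e-05), while GSK3326595 gave -0.21 ± 0.118 (edgeR adjusted p = 0.232).

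GUSB (Gene ID 2990, chr7:65960684-65982213), the β-glucuronidase, went the other way. It was at 53.3 and 50.6 CPM with DMSO, 30.6 and 31.2 with palbociclib and 47.9 and 41.5 with GSK3326595, so the palbociclib libraries were the lowest. It fell by 0.75 ± 0.103 on the log2 scale (edgeR adjusted p = 0.000141) with palbociclib, which is 0.596 times the DMSO level. With GSK3326595 it was at -0.22 ± 0.102 (edgeR adjusted p = 0.161, and 0.0352 with a replicate block), and the inhibitors differed by -0.53 ± 0.104 (edgeR adjusted p = 0.00209). The annotation holds 19 pseudogenes named after GUSB, and counts between such copies may be split.

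GLB1 (Gene ID 2720, chr3:32961108-33097146), the β-galactosidase, rose less than these. It was at 55.3 and 54.3 CPM with DMSO, 76.6 and 75.0 with palbociclib and 60.4 and 60.7 with GSK3326595. Both inhibitor groups lay above DMSO, and palbociclib was the highest. The rise was log2 0.47 ± 0.0829 (edgeR adjusted p = 0.000876) with palbociclib and 0.14 ± 0.0838 (edgeR adjusted p = 0.262) with GSK3326595. The direct difference of 0.33 ± 0.0828 (edgeR adjusted p = 0.00966) was not called without palbociclib replicate 1 (edgeR adjusted p = 0.0883) or without palbociclib replicate 2 (edgeR adjusted p = 0.0629). HEXA, a subunit of β-hexosaminidase, and IDUA, the α-iduronidase, rose with palbociclib by 0.58 and 1.27. With GSK3326595 they gave 0.24 (edgeR adjusted p = 0.0662, and 0.00641 with a block) and 0.35 (edgeR adjusted p = 0.154, and 0.00727 with a block), and IDUA 0.58 without DMSO replicate 1 (edgeR adjusted p = 0.0388). HEXA's direct difference of 0.34 (edgeR adjusted p = 0.00765) was 0.28 without palbociclib replicate 1 (edgeR adjusted p = 0.118).

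NAGLU, the α-N-acetylglucosaminidase, was called with GSK3326595 alone. It was at 42.1 and 43.0 CPM with DMSO, 50.3 and 49.2 with palbociclib and 54.1 and 50.7 with GSK3326595, so both inhibitor groups lay above DMSO. GSK3326595 gave log2 0.30 ± 0.0916 (edgeR adjusted p = 0.0397), which was not called when any 1 library was left out, at edgeR adjusted p of 0.0523 to 0.217. Palbociclib gave 0.23 ± 0.0912 (edgeR adjusted p = 0.0673, and 0.0147 with a block), and the inhibitors differed by -0.07 (edgeR adjusted p = 0.57). GALC, the galactosylceramidase, was not called in any comparison.

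All 3 sulfatases, which remove sulfate from glycosaminoglycans, rose with palbociclib and none was called with GSK3326595. IDS, the iduronate 2-sulfatase, was at 88.7 and 91.3 CPM with DMSO, 178 and 171 with palbociclib and 93.1 and 87.4 with GSK3326595. The palbociclib libraries were 1.94-fold above DMSO (log2 0.95 ± 0.0803, edgeR adjusted p = 3.01e-06). GSK3326595 gave 0.00 ± 0.0811 (edgeR adjusted p = 0.983), and the direct difference was 0.95 ± 0.0804 (edgeR adjusted p = 1.1e-05). GALNS, the N-acetylgalactosamine 6-sulfatase, was at 22.03 and 20.4 CPM with DMSO, 36.7 and 36.0 with palbociclib and 24.6 and 22.9 with GSK3326595. It rose by 0.78 ± 0.104 (edgeR adjusted p = 0.000112) and lay at 0.16 ± 0.107 (edgeR adjusted p = 0.312) with GSK3326595. SGSH, the heparan N-sulfatase, was at 35.7 and 33.5 CPM with DMSO, 49.6 in both palbociclib libraries and 36.9 and 30.0 with GSK3326595. It rose by 0.52 ± 0.111 (edgeR adjusted p = 0.00296) with palbociclib, and GSK3326595 gave -0.05 ± 0.114 (edgeR adjusted p = 0.804).

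**Figure D4:**
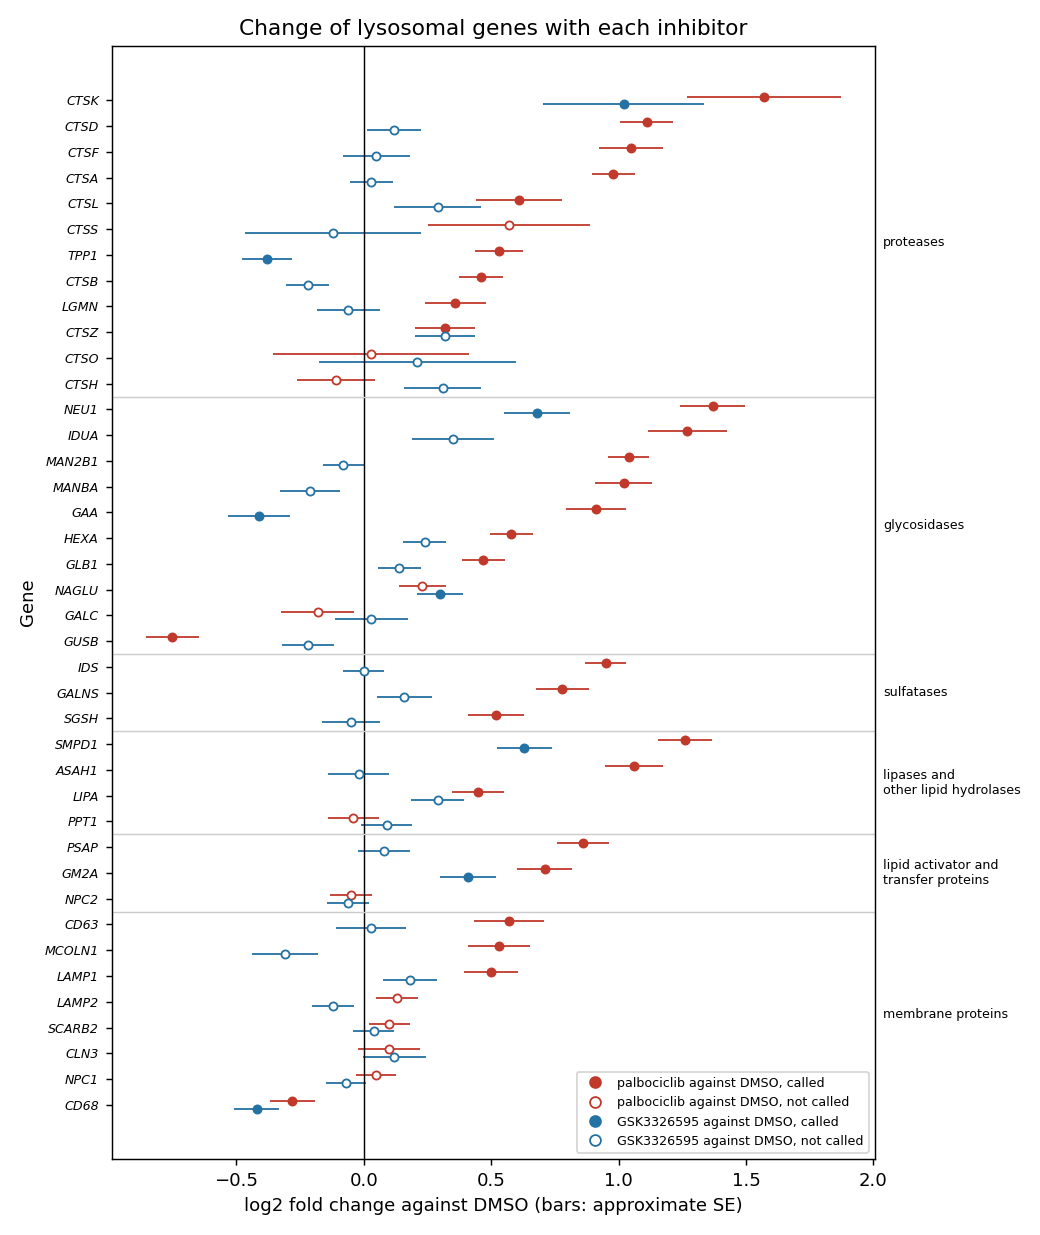
Log2 fold change of each member with its standard error in palbociclib against DMSO and in GSK3326595 against DMSO, ordered by class, with filled points for called genes. With palbociclib 27 filled points lie above 0 and 2 below, and with GSK3326595 5 above and 3 below; both comparisons use the same DMSO libraries.

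Of the 4 lipid hydrolases, 3 rose with palbociclib. SMPD1, the acid sphingomyelinase, rose with both inhibitors. It was at 19.8 and 19.7 CPM with DMSO, 48.8 and 45.9 with palbociclib and 28.8 and 32.3 with GSK3326595, and no groups overlapped. The rise was log2 1.26 ± 0.105 (edgeR adjusted p = 2.8e-06) with palbociclib and 0.63 ± 0.107 (edgeR adjusted p = 0.00204) with GSK3326595, and the inhibitors differed by 0.63 ± 0.102 (edgeR adjusted p = 0.000644). NEU1 and SMPD1 were the members called in every setting tried for GSK3326595. ASAH1, the acid ceramidase, which acts on the ceramide that sphingomyelinase releases, was at 25.04 and 23.3 CPM with DMSO, 53.1 and 47.8 with palbociclib and 21.8 and 26.0 with GSK3326595. It rose by 1.06 ± 0.114 (edgeR adjusted p = 2.21e-05) with palbociclib, while GSK3326595 lay on both sides of DMSO (-0.02 ± 0.119, edgeR adjusted p = 0.94). The direct difference was 1.08 ± 0.115 (edgeR adjusted p = 4.62e-05).

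LIPA, the acid lipase that frees cholesterol from its esters, was at 61.4 and 65.1 CPM with DMSO, 92.1 and 80.3 with palbociclib and 71.5 and 83.5 with GSK3326595. Both inhibitor groups lay above DMSO and overlapped each other. Palbociclib gave log2 0.45 ± 0.102 (edgeR adjusted p = 0.0044), and 0.35 without palbociclib replicate 1 (edgeR adjusted p = 0.0688). GSK3326595 gave 0.29 ± 0.103 (edgeR adjusted p = 0.0668), with a block at edgeR adjusted p = 0.00262, and 0.40 without GSK3326595 replicate 1 (edgeR adjusted p = 0.019). PPT1, a palmitoyl thioesterase, was not called in any comparison.

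The activator and transfer proteins help the lipid enzymes reach their substrates. PSAP, the precursor of the saposins, had the highest level per exon length of all members, at 175 CPM per kb with DMSO, and CD63 followed at 104. The lowest were CTSS at 0.442 and CTSO at 0.531 CPM per kb. PSAP was at 569 and 563 CPM with DMSO, 1044 and 1011 with palbociclib and 557 and 642 with GSK3326595. It rose by log2 0.86 ± 0.103 (edgeR adjusted p = 5.09e-05) with palbociclib, lay at 0.08 ± 0.103 (edgeR adjusted p = 0.616) with GSK3326595 and differed between the inhibitors by 0.78 ± 0.103 (edgeR adjusted p = 0.000174). GM2A, the activator of ganglioside breakdown, was at 27.1 and 28.8 CPM with DMSO, 45.5 and 45.7 with palbociclib and 34.0 and 40.4 with GSK3326595. The groups did not overlap. It rose by 0.71 ± 0.108 (edgeR adjusted p = 0.000317) with palbociclib and by 0.41 ± 0.11 (edgeR adjusted p = 0.0219) with GSK3326595. The second rise was not called without DMSO replicate 1 (edgeR adjusted p = 0.148), DMSO replicate 2 (edgeR adjusted p = 0.0601) or GSK3326595 replicate 2 (edgeR adjusted p = 0.152). The inhibitors differed by 0.29 ± 0.107 (edgeR adjusted p = 0.0512, and 0.00387 with a block). It was 0.42 without GSK3326595 replicate 2 (edgeR adjusted p = 0.0142), and was also called without DMSO replicate 1 (0.0469) and DMSO replicate 2 (0.0475). NPC2, which carries cholesterol out of the lumen, lay between 77.9 and 85.5 CPM in all 6 libraries and was not called.

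Of the 8 membrane proteins, 3 rose and 1 fell with palbociclib, and their median log2 fold change was 0.11. LAMP1 (Gene ID 3916, chr13:113297239-113323672), a heavily glycosylated protein of the lysosomal membrane, was at 179.6 and 213 CPM with DMSO, 271 and 284 with palbociclib and 206 and 239.8 with GSK3326595. Palbociclib was the highest, and GSK3326595 overlapped DMSO. It rose by 0.50 ± 0.106 (edgeR adjusted p = 0.0028) with palbociclib, and GSK3326595 gave 0.18 ± 0.106 (edgeR adjusted p = 0.257, and 0.0308 with a block). The direct difference of 0.32 ± 0.105 (edgeR adjusted p = 0.0353) was not called without palbociclib replicate 1 (0.101), palbociclib replicate 2 (0.182) or GSK3326595 replicate 1 (0.193). MCOLN1, a calcium channel of the lysosome, was at 16.2 and 14.2 CPM with DMSO, 22.4 and 21.5 with palbociclib and 11.7 and 12.7 with GSK3326595. The groups did not overlap. It rose by 0.53 ± 0.122 (edgeR adjusted p = 0.00471) with palbociclib, and GSK3326595 gave -0.31 ± 0.129 (edgeR adjusted p = 0.11, and 0.038 with a block). The direct difference was 0.84 ± 0.125 (edgeR adjusted p = 0.000358).

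CD68, a glycoprotein best known from macrophages, fell in both comparisons. It was at 89.1 and 81.8 CPM with DMSO, 73.9 and 66.6 with palbociclib and 63.1 and 64.4 with GSK3326595. Both inhibitor groups lay below DMSO. The fall was -0.28 ± 0.0889 (edgeR adjusted p = 0.0239) with palbociclib and -0.42 ± 0.0897 (edgeR adjusted p = 0.00728) with GSK3326595. The first was not called when any 1 DMSO or palbociclib library was left out (edgeR adjusted p of 0.0513 to 0.244), and the second was not called without DMSO replicate 1 (0.0539). Of 10 markers of blood cells only CSF1R and LYZ passed the filter, and PTPRC, CD163 and AIF1 were at or near 0. Their summed level was 8.09 and 7.96 CPM with DMSO, 17.5 and 17.2 with palbociclib and 8.80 and 10.4 with GSK3326595. LYZ was at 4.63 and 4.53, 14.1 and 13.6, and 3.50 and 6.35 CPM in that order. The part of these cells in the CD68 result was not tested.

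CD63, a tetraspanin of the lysosome and of exosomes, rose with palbociclib by log2 0.57 ± 0.138 (edgeR adjusted p = 0.00633), and by 0.49 without palbociclib replicate 2 (edgeR adjusted p = 0.0565). Its direct difference of 0.54 (edgeR adjusted p = 0.00958) was not called without that library (0.0777) or without GSK3326595 replicate 1 (0.33, edgeR adjusted p = 0.0528). LAMP2, the companion of LAMP1, was called in the direct comparison alone, at 0.25 (edgeR adjusted p = 0.0365). It was not called when any 1 palbociclib or GSK3326595 library was left out (edgeR adjusted p of 0.0795 to 0.233). The cholesterol exporter NPC1, the membrane protein CLN3 and the transport receptor SCARB2 lay at most 0.12 from 0 on the log2 scale in all 3 comparisons and were not called.

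Read across the 3 comparisons, 18 members rose with palbociclib, were not called with GSK3326595 and were higher with palbociclib than with GSK3326595. They include CTSA, CTSD, MAN2B1, IDS, ASAH1, PSAP and LAMP1. NEU1 and SMPD1 were called higher in all 3, and TPP1 and GAA rose with palbociclib and fell with GSK3326595. GUSB was lower with palbociclib in both comparisons it enters. CTSH, a cysteine cathepsin, was lower with palbociclib than with GSK3326595 by -0.42 ± 0.151 (edgeR adjusted p = 0.0492), which was not called when any 1 of the 6 libraries was left out (0.0507 to 0.191). CTSL and CTSS gave 0.33 and 0.69 and were called with a block (edgeR adjusted p of 0.000186 and 0.0412), CTSL also without GSK3326595 replicate 2 (0.59, edgeR adjusted p = 0.00771) and CTSS without GSK3326595 replicate 1 (1.06, edgeR adjusted p = 0.0492). LGMN gave 0.41 (edgeR adjusted p = 0.0192) and was not called without palbociclib replicate 1 (0.0649), palbociclib replicate 2 (0.14) or GSK3326595 replicate 1 (0.0771).

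**Figure D5:**
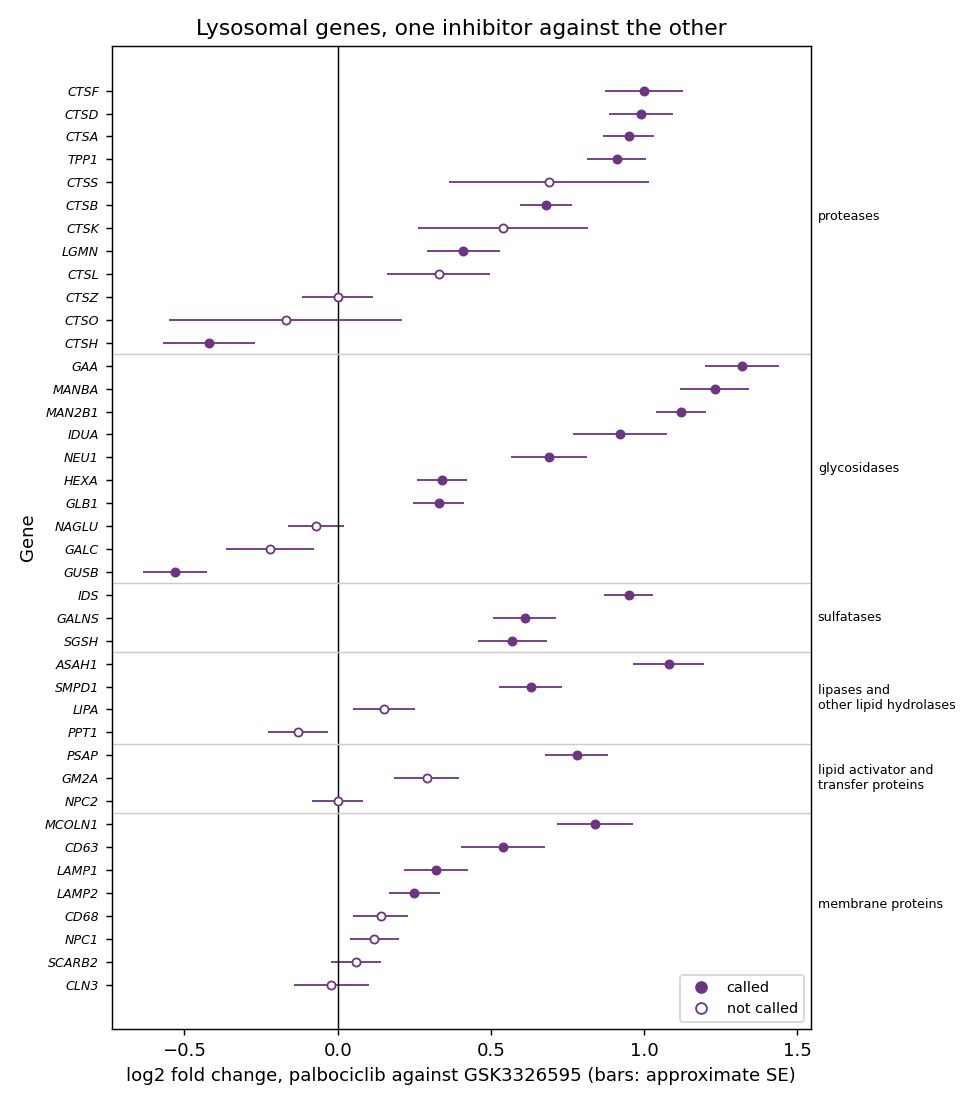
Log2 difference of each member between palbociclib and GSK3326595 with its standard error, ordered by class and by size within each class, with filled points for called genes. The differences run from -0.53 for GUSB to 1.32 for GAA, with 23 called higher and 2 lower with palbociclib.

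Other genes of the lysosome were grouped in lists of the same pathway. Like the members, these lists were chosen with earlier results of these data known, so their counts are no independent check. Their counts stand beside the same shares of all tested genes as above, which were 19.3% higher and 20.2% lower with palbociclib, 8.58% and 10.2% with GSK3326595, and 16.6% and 18.2% between the inhibitors. Of 24 further hydrolases, 16 rose and 1 fell with palbociclib (median log2 0.46), 1 rose and 6 fell with GSK3326595 (median -0.13), and 18 were higher with palbociclib than with GSK3326595 (median 0.52). With a replicate block 2 rose and 8 fell with GSK3326595, where 2826 and 2943 of all 16381 genes tested did. PLD3, a lysosomal nuclease, was at 56.7 and 52.1 CPM with DMSO, 113 and 114 with palbociclib and 63.4 and 62.8 with GSK3326595. It rose by 1.06 with palbociclib (edgeR adjusted p = 1.78e-06), and GSK3326595 gave 0.21 (edgeR adjusted p = 0.0994, and 0.019 with a block). PLBD2 rose by 0.94 and PLA2G15 (the lysosomal phospholipase A2) by 0.90. PLA2G15 was also the 1 gene that rose with GSK3326595, by 0.44 (edgeR adjusted p = 0.0177), which was not called without DMSO replicate 1 (0.0909), DMSO replicate 2 (0.0706) or GSK3326595 replicate 2 (0.115). SIAE and ACP2, named after their values were seen, rose with palbociclib by 0.83 and 0.44 and fell with GSK3326595 by -1.06 (edgeR adjusted p = 0.000424) and -0.82 (edgeR adjusted p = 0.000453). The rise of ACP2 was 0.39 without palbociclib replicate 2 (edgeR adjusted p = 0.0595). SIAE, a sialic acid esterase, was at 19.9 and 16.3 CPM with DMSO, 31.5 and 33.0 with palbociclib and 9.44 and 7.92 with GSK3326595, with no overlap.

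Of 16 further membrane proteins, 9 rose with palbociclib, while 2 rose and 1 fell with GSK3326595. The fall was that of HGSNAT, an acetyltransferase named after its values were seen, and it was called without GSK3326595 replicate 1 but with no other single library left out (edgeR adjusted p of 0.0738 to 0.193). With a replicate block 3 rose and 3 fell, where 2826 and 2943 of all 16381 genes tested did. The block added LAPTM4B (log2 0.19, edgeR adjusted p = 0.0275), TPCN1 (-0.24, edgeR adjusted p = 0.0067) and SLC38A9 (-0.50, edgeR adjusted p = 0.000849), named after their values were seen. SLC38A9 was also called lower without DMSO replicate 2 (-0.64, edgeR adjusted p = 0.0445) and without GSK3326595 replicate 1 (-0.75, edgeR adjusted p = 0.00536). The proton channel TMEM175 rose by log2 0.90, the chloride exchanger CLCN7 by 0.61, the sialic acid exporter SLC17A5 by 0.99 and the cystine exporter CTNS by 0.77, and none of these 4 was called with GSK3326595. Of 9 genes that tag and carry new hydrolases, 6 rose and 1 fell with palbociclib. Without palbociclib replicate 1, 3 of the 9 were called higher. IGF2R, the large mannose 6-phosphate receptor, was at 267 and 247 CPM with DMSO, 398 and 397 with palbociclib and 259 and 271 with GSK3326595. It rose by 0.63 (edgeR adjusted p = 0.000146), CLN8 by 0.80 (edgeR adjusted p = 5.18e-05) and GNPTG by 0.55 (edgeR adjusted p = 0.00608). CLN6, a membrane protein of the endoplasmic reticulum, fell by 0.62 with palbociclib (edgeR adjusted p = 0.00122) and by 0.41 with GSK3326595 (edgeR adjusted p = 0.0288). The second fall was not called without DMSO replicate 2 (-0.29, edgeR adjusted p = 0.198) or GSK3326595 replicate 1 (-0.36, edgeR adjusted p = 0.073).

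The 16 genes of the MiT/TFE factors and the Rag and folliculin proteins that control them gave 7 rises with palbociclib (43.8%, against 19.3% of all tested genes). The count was smaller when any 1 DMSO or palbociclib library was left out, and so was the count called higher over all genes tested. With GSK3326595 4 rose (25%, against 8.58% of all), and 2 did without DMSO replicate 1, DMSO replicate 2 or GSK3326595 replicate 2. TFEB was at 3.07 and 2.65 CPM with DMSO, 3.30 and 3.75 with palbociclib and 3.56 and 4.19 with GSK3326595, and it was not called (edgeR adjusted p = 0.334 and 0.228). TFE3 was at 90.5 and 94.7, 113 and 114, and 97.3 and 107 CPM in the same order. It rose by log2 0.29 with palbociclib (edgeR adjusted p = 0.0153), but leaving out DMSO replicate 1 gave edgeR adjusted p = 0.114, palbociclib replicate 1 0.0841 and palbociclib replicate 2 0.104. MITF, at 57.4 and 61.0, 57.4 and 59.9, and 78.7 and 87.4 CPM, rose with GSK3326595 by 0.49 (edgeR adjusted p = 0.00324) and lay at -0.01 with palbociclib (edgeR adjusted p = 0.92), with a direct difference of -0.50 (edgeR adjusted p = 0.00124). The GTPases RRAGA and RRAGD and the scaffold LAMTOR3 rose with palbociclib by 0.53, 0.73 and 0.53. With GSK3326595, RRAGD rose by 0.59 (edgeR adjusted p = 0.0088) and LAMTOR3 by 0.40 (edgeR adjusted p = 0.0332). Between the inhibitors each gave 0.13 and was not called. RRAGA gave 0.15 with GSK3326595 (edgeR adjusted p = 0.265) and 0.38 between the inhibitors (edgeR adjusted p = 0.00613). The calls of RRAGD and LAMTOR3 with GSK3326595, and that of RRAGA between the inhibitors, were not kept in every setting. These are RNA levels, and neither protein activity nor the nuclear entry of these factors was measured.

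Of 7 cystatins, the inhibitors of the cysteine cathepsins, 4 passed the filter. Of these, 2 (CST3 and CST6) rose with palbociclib and 1 (CST6) with GSK3326595. CST6 was at 1.45 and 0.833 CPM with DMSO, 2.69 and 2.59 with palbociclib and 4.14 and 2.68 with GSK3326595. Both inhibitor groups lay above DMSO and overlapped each other. It rose by log2 1.21 with palbociclib (edgeR adjusted p = 0.0153), but leaving out DMSO replicate 2 gave 0.117, palbociclib replicate 1 0.0675 and palbociclib replicate 2 0.0599. It rose by 1.58 with GSK3326595 (edgeR adjusted p = 0.00837), and by 1.23 without DMSO replicate 2 (edgeR adjusted p = 0.0631). CST3, the most abundant, was at 89.1 and 90.4 CPM with DMSO, 152 and 153 with palbociclib and 91.0 and 116 with GSK3326595. It rose by log2 0.76 with palbociclib (edgeR adjusted p = 0.000132). GSK3326595 gave 0.20 (edgeR adjusted p = 0.198, and 0.0289 with a block), and 0.37 without GSK3326595 replicate 1 (edgeR adjusted p = 0.0194).

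Some calls also ended, and others began, under another tool, scaling or filter. With DESeq2, CTSL (adjusted p = 0.0899), LGMN (0.0825) and CD68 (0.065) were not called with palbociclib, nor NAGLU (0.07) with GSK3326595. With library totals in edgeR, CTSK (adjusted p = 0.0731), GAA (0.0732) and NAGLU (0.06) were not called with GSK3326595. With no filter on low counts, edgeR gave adjusted p = 0.0528 for CTSZ with palbociclib, 0.0583 for NAGLU with GSK3326595 and 0.0695 for LAMP2 between the inhibitors. With only the 2 groups compared, edgeR gave adjusted p = 0.0535 for CTSK and 0.067 for NAGLU with GSK3326595. CTSH between the inhibitors was not called under DESeq2, its size factors, library totals or only the 2 groups (adjusted p of 0.0548 to 0.131). In edgeR, GM2A between the inhibitors was called with DESeq2 size factors (adjusted p = 0.046), library totals (0.0315) and only the 2 groups (0.0385). It was also called with a filter of at least 1 CPM in 2 libraries (0.0424). With library totals in edgeR, CTSB was called lower (adjusted p = 0.0404) and CTSZ higher (0.0455) with GSK3326595.

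Exons of 22 of the 40 members share bases with another gene model of GENCODE v29, 18 of them with a gene on the opposite strand. Whether the counting used strand is not given in the sources used here, so reads of such pairs cannot be told apart. CTSL, GM2A, IDS, LAMP1 and LGMN also have pseudogenes named after them, besides GUSB.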

How the data were processed

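RNA from A375 cells was sequenced in 6 libraries. The authors deposited raw counts per NCBI Gene identifier, 1 file a library. Reads were processed with CASAVA 1.8.2, cutadapt 1.7, HISAT2, featureCounts 1.6.2 and limma on hg38, per the submitters' processing notes. The sources used here name no gene annotation or strand setting. Of 28395 identifiers 27745 matched a symbol, and 0.233 to 0.508% of counts had none.

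Counts were fitted with edgeR 4.0.16 in R 4.3.3 over all 6 libraries, which leaves 3 residual degrees of freedom (filterByExpr with a minimum count of 10, TMM, quasi-likelihood F test, two-sided, Benjamini-Hochberg over 16381 genes). The script was tested on simulated data. SE is the absolute log2 fold change over the root of the F statistic. CPM per kb uses the union of GENCODE v29 exons. All 40 members may be named. Full values are given for the 2 with the smallest p in each class against DMSO, those called lower, the 8 with the smallest p between the inhibitors, and GLB1, LAMP1 and CTSD. Further genes of the hydrolase and membrane protein lists are marked as named after their values were seen. From each other list the rule names at most 4 tested genes, beside TFEB, TFE3 and MITF. The values of 1 gene that this rule would name are not reported here. The members and lists were chosen with earlier results of these data known.

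Same-numbered replicates deviated together (correlation over 16381 genes 0.18 for DMSO and palbociclib, 0.34 for DMSO and GSK3326595, 0.14 for palbociclib and GSK3326595), so a fit with the replicate number as a block was added. The labels do not say that same-numbered libraries belong together, so the block rests on these correlations alone. Replicate 2 held more counts than replicate 1 in each group, and the part of depth in the correlations was not tested. Other alternatives were DESeq2 1.42.0, other scalings, other filters, fits of only the groups compared, and leaving out each library.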

Additional observations from a re-analysis of the deposited data

How the results depend on the processing

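Every call was recomputed in 13 other settings. Of the 29 members called with palbociclib against DMSO, 23 were called in all 13, as were 2 of 8 with GSK3326595 and 18 of 25 between the inhibitors, and no called member changed sign. With the replicate block, 5769 genes, 11 higher and 6 lower members were called with GSK3326595, against 3081, 5 and 3. With palbociclib the block gave 28 higher and 2 lower members, beside 4262 and 4454 of all genes tested. Between the inhibitors it gave 27 and 2, beside 3730 and 4183. With only the 2 groups compared, 3 members were called higher with GSK3326595. With DESeq2, 1 member was called lower with palbociclib. Between the inhibitors, 1 was called lower with DESeq2, with its size factors in edgeR, with library totals and with only the 2 groups compared. The cause was not tested.

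With 1 library left out, the genes called ranged from 4007 to 7259 for palbociclib, 1765 to 3230 for GSK3326595 and 3312 to 5542 between the inhibitors. Members called higher ranged from 23 to 27, 2 to 6 and 18 to 24 in that order, and members called lower from 1 to 2, 0 to 3 and 1 to 1. Where a comparison then had 1 library on a side, it was taken to vary like the other groups. The 5 lists of other genes were run in the same settings, added after seeing the data. With 2 libraries a group, genes at a few CPM such as CTSK, CTSS and CTSO have standard errors near 0.3 and above, so small changes in them were not detectable.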
